A study of Mus musculus with 9 samples.

Results

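The genes described here move iron and zinc into, within and out of the cell or bind these metals: Tfrc, Slc11a2, Fth1, Slc40a1, Lcn2, Mt1, Mt2 and Slc30a1. They were taken by gene symbol from the platform annotation of the array, and each of the 8 genes had 1 feature, of 19505 genes measured in all. RNA was profiled in GFP-labelled 3LL cells, the transplantable mouse line Lewis lung carcinoma (LLC), on 9 arrays in 3 groups of 3. For the lung group, cells were placed in the lungs of mice, and those positive for GFP were isolated 7 days later. The subcutaneous group held GFP-positive cells isolated 7 days after transplantation under the skin, and the dish group held cells kept in monolayer culture for 7 days. The strain label reads C57/BL6 throughout, and the series text refers to the lung hosts as BLM lungs, an abbreviation that it does not spell out. All groups come from 1 labelled line, and the labels do not give the age of the mice, the number of mice per array or whether mice were pooled. The labels also do not say whether the 3 samples within a group are separate animals or cultures; the p-values therefore cover the spread among these samples, which may be technical.

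A cell takes up iron bound to transferrin through the transferrin receptor, reduces it in the endosome, passes it to the cytosol through a divalent metal transporter, and then uses it, stores it in ferritin or exports it through ferroportin. Iron regulatory proteins bind stem-loops in these mRNAs when iron is scarce, which stabilizes the mRNA of the transferrin receptor and blocks translation of the mRNA of ferritin, so the ferritin mRNA level is not a readout of the protein. Metallothioneins are small cysteine-rich proteins that bind zinc and copper, and their genes answer to the zinc-sensing factor MTF1, to glucocorticoids and to cell stress. Dividing tumour cells are known for high transferrin receptor, and lipocalin 2, which binds bacterial iron carriers, is made by neutrophils and by stressed epithelium, that of the lung included.

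The values are log2 signals, and a signal of 1 gene cannot be set against that of another on this scale. The limma test ran over all 19505 genes, and a difference counts as called below a Benjamini-Hochberg adjusted p of 0.05. Only called genes are said to have risen or fallen. Each array's background guide is the value under which 90% of its 5222 negative controls lay, and it ranged between 7.205 and 7.732. Of the 8 genes, 7 were above this guide on at least 1 array, and Slc40a1 was above it on none. Of all 19505 genes, 7443 were above it on at least 1 array. Over all genes, 61.4% of the calls between lung and subcutaneous samples were higher in lung, against 53.0% after quantile normalization and 38.4% when the median of the genes above the guide on all arrays was made equal. For lung against dish the shares were 71.0%, 54.5% and 42.5%. That last scaling moved the median of all genes by -0.21 for lung against subcutaneous and by -0.22 for lung against dish, and lung values of single genes are to be read relative to it. RNA integrity numbers ran from 7.5 to 8.6. They were 8.3, 7.9 and 8.3 on lung replicates 1 to 3 and 8.6, 7.5 and 7.8 on subcutaneous replicates 1 to 3. Dish replicates 1 to 3 had 8.5, 8.6 and 8.4, so integrity and group were partly confounded.

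Against the dish cultures, the transferrin receptor gene was lower in both transplanted groups and lipocalin 2 was higher in the lung group. Between lung and dish samples, 2 of the 8 genes were called, Lcn2 higher and Tfrc lower, where 6.78% of all genes were called (4.81% higher and 1.97% lower). Between subcutaneous and dish samples 1 of the 8 was called, Tfrc lower, where 12.9% of all genes were called (6.47% lower). Between lung and subcutaneous samples limma called 0 of the 8, beside 15.0% of all genes. An unadjusted limma p under 0.05 was found for 3 of the 8 (Fth1, Lcn2 and Tfrc) and for 5675 of all 19505 genes. The median difference of the 8 genes was 0.25 for lung against subcutaneous, -0.57 for lung against dish and -0.44 for subcutaneous against dish, beside -0.07, -0.07 and -0.01 over all genes. The comparisons with the dish cultures share the same 3 dish arrays. The plot of the 8 genes by array shows these patterns.

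**Figure D1:**
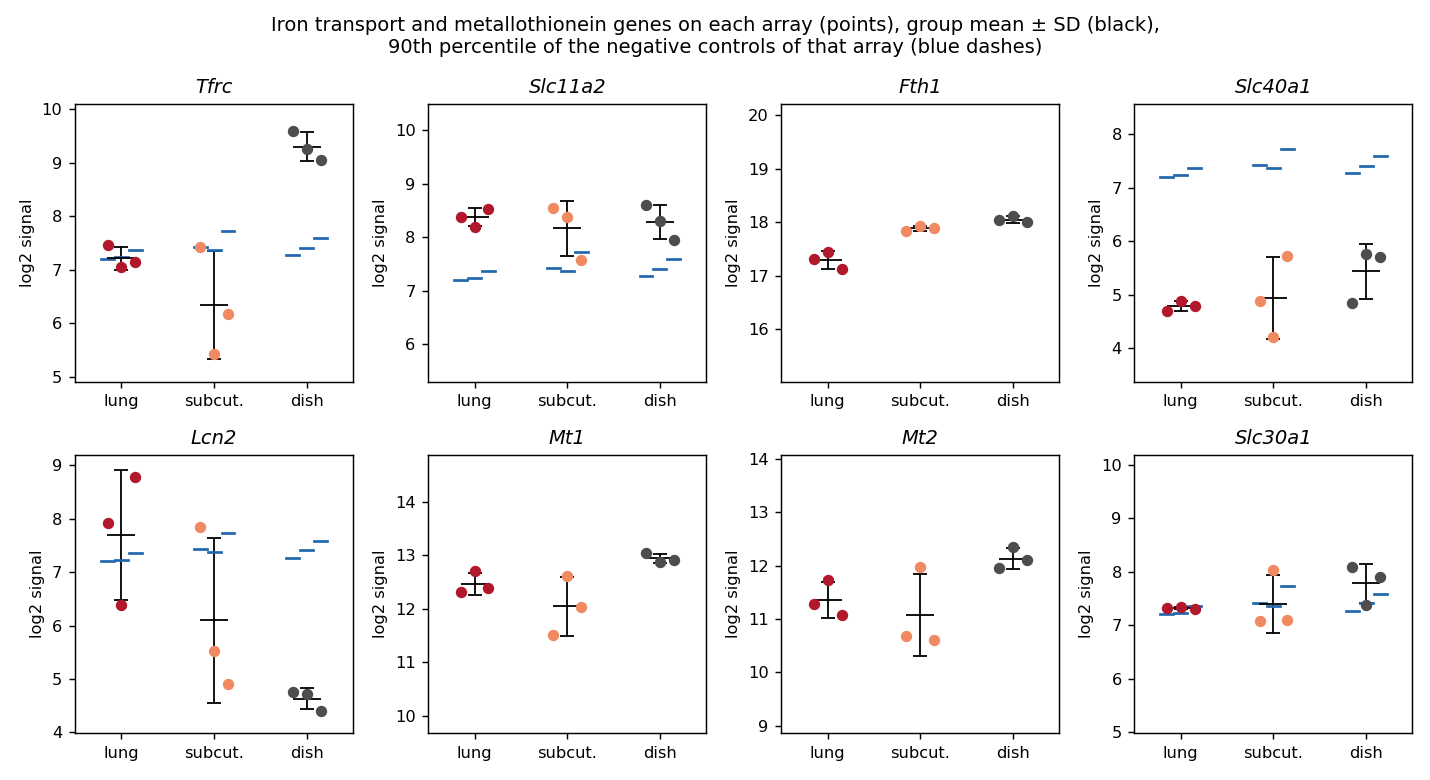
Log2 signal of the 8 genes on each array (points), with the group mean and SD (black; n = 3) for lung, subcutaneous and dish samples; every panel spans the same log2 range, and blue dashes mark the 90th percentile of the negative controls of each array where it falls in the panel. Tfrc is highest on the 3 dish arrays, Lcn2 varies among the lung and subcutaneous arrays, and Slc40a1 lies under the dashes on all 9 arrays.

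Tfrc encodes the transferrin receptor, the main route of iron into dividing cells; RefSeq places it on chromosome 16 at 32608896 to 32632794 (GRCm38.p6). Its log2 signal was 7.45, 7.04 and 7.15 on lung replicates 1 to 3, 7.42, 5.42 and 6.17 on subcutaneous replicates 1 to 3, and 9.59, 9.26 and 9.05 on dish replicates 1 to 3. The dish arrays were all higher than the 6 arrays of transplanted cells, and lung and subcutaneous values overlapped. Tfrc fell in lung samples to 7.21 ± 0.21 (SD, n = 3), against 9.30 ± 0.27 in dish samples, a log2 difference of -2.09 (SE 0.40, limma adjusted p = 0.00835). It also fell in subcutaneous samples, to 6.34 ± 1.01, against the same 9.30 ± 0.27 in dish samples, a log2 difference of -2.96 (SE 0.40, limma adjusted p = 0.000362). In subcutaneous samples it was not well above background on any array, so the dish level is at least 3.465-fold higher, and on the lung arrays it was above the guide on 1 of 3. The lower value of subcutaneous than of lung samples was not called (log2 difference of lung over subcutaneous 0.88, 95% interval 0.01 to 1.74, limma adjusted p = 0.165), and without subcutaneous replicate 1 it was (1.42, adjusted p = 0.0109). Without subcutaneous replicate 2 it was 0.42 (0.489), and with RNA integrity as a covariate 0.56 (0.185). In bulk samples such as these, fewer cells of a type and less RNA per cell cannot be told apart.

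Slc11a2, on chromosome 15 at 100387898 to 100424209, encodes the divalent metal transporter DMT1, which carries iron out of the endosome. It stood at 8.39, 8.20 and 8.54 on the lung arrays, 8.55, 8.37 and 7.57 on the subcutaneous arrays, and 8.60, 8.30 and 7.95 on the dish arrays. The 3 groups overlapped, with subcutaneous replicate 3 the lowest. The log2 difference was 0.09 between lung and dish samples (95% interval -0.54 to 0.72), -0.12 between subcutaneous and dish samples (-0.75 to 0.51) and 0.21 between lung and subcutaneous samples (-0.42 to 0.84), none of them called, and each interval holds changes of either sign. The lung difference from dish turned to -0.24 after quantile normalization and to -0.13 with the median of bright genes made equal, and that from subcutaneous samples turned to -0.10 after quantile normalization.

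Fth1 encodes the heavy chain of ferritin, the subunit that oxidizes iron for storage, and lies on chromosome 19 at 9980600 to 9985111. Its signal was 17.32, 17.45 and 17.12 on the lung arrays, 17.83, 17.92 and 17.89 on the subcutaneous arrays, and 18.03, 18.12 and 17.99 on the dish arrays. The lung arrays were the lowest and the dish arrays the highest, and no 2 groups overlapped. The lung mean of 17.29 ± 0.17 (SD, n = 3) stood beside a dish mean of 18.05 ± 0.06 (log2 difference -0.75, SE 0.22) and a subcutaneous mean of 17.88 ± 0.05 (-0.59, SE 0.22). Neither was called (limma adjusted p = 0.0538 and 0.0866), and the subcutaneous difference from dish was -0.17 (adjusted p = 0.698). With the median of bright genes made equal, with a filter on dim genes or with an intensity trend, both lung differences were called, at adjusted p = 0.0248, 0.0182 and 0.000918 against dish and 0.0332, 0.0312 and 0.00218 against subcutaneous. With array weights only that against dish was called (-0.74, limma adjusted p = 0.0191). After quantile normalization the difference from subcutaneous samples shrank to -0.27 (adjusted p = 0.45) and that from dish samples to -0.57 (0.13), and without 1 array the adjusted p against dish reached 0.166. These signals stand near the highest of any feature (19.10 to 19.71 by array); saturation was not tested, and neither was the share of the signal that comes from the processed copies of this gene.

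Slc40a1 encodes ferroportin, the only known exporter of iron from mammalian cells, and lies on chromosome 1 at 45908070 to 45926532. It read 4.68, 4.88 and 4.79 on the lung arrays, 4.87, 4.21 and 5.73 on the subcutaneous arrays, and 4.84, 5.75 and 5.71 on the dish arrays. All 9 values lay under the guide and the groups overlapped, so no order of the groups can be read from them. Markers of macrophages, which export iron through ferroportin, were read beside it. Of 12 measured, Cd14 was above the guide in all 3 groups. Lyz2 was so on 2 lung arrays and Mrc1 on 1, and neither was on any subcutaneous or dish array. The others, among them Adgre1, Csf1r, Marco and the complement genes C1qa, C1qb and C1qc, were under the guide on all arrays. Lyz2 read 9.68, 6.32 and 10.04 on lung replicates 1 to 3, the same order as the alveolar type II marker Sftpc (15.6, 13.5 and 16.4). Which cells gave the Lyz2 signal was not tested. The summed signal of the list was 706.9 to 2122 on the lung arrays, 614.8 to 882.7 on the subcutaneous arrays and 530.1 to 796.3 on the dish arrays.

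Lcn2 encodes lipocalin 2, a secreted protein that binds iron-loaded siderophores, and lies on chromosome 2 at 32384637 to 32387739. It read 7.92, 6.37 and 8.78 on the lung arrays, 7.85, 5.53 and 4.91 on the subcutaneous arrays, and 4.76, 4.72 and 4.40 on the dish arrays. Each array of transplanted cells was higher than each dish array, while lung and subcutaneous values overlapped through lung replicate 2 and subcutaneous replicate 1. In lung samples it rose to 7.69 ± 1.22 (SD, n = 3), against 4.63 ± 0.20 in dish samples, a log2 difference of 3.06 (SE 0.67, limma adjusted p = 0.0156). It was above the guide on lung replicates 1 and 3 and subcutaneous replicate 1, and on no dish array. Against the guide of the dish arrays the lung mean is at least 1.204-fold higher, or 1.901-fold without lung replicate 2, and without lung replicate 3 the lung mean is no longer above that guide. The call was lost without lung replicate 1, dish replicate 2 or dish replicate 3 (adjusted p = 0.0628, 0.0618 and 0.0656).

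For subcutaneous against dish samples the Lcn2 difference was 1.47 (95% interval 0.03 to 2.91, limma adjusted p = 0.184), with subcutaneous replicate 1 far above the others of its group; without that array it was 0.59 (adjusted p = 0.554), and with RNA integrity as a covariate 2.94 (0.00513). For lung against subcutaneous samples it was 1.595 (0.16 to 3.03, limma adjusted p = 0.129), called without subcutaneous replicate 1 (2.47, adjusted p = 0.0117) and without lung replicate 2 (2.25, adjusted p = 0.0467). Without subcutaneous replicate 3 it was 1.0025 (adjusted p = 0.389) and without lung replicate 3 it was 1.05 (0.352), and with RNA integrity as a covariate 1.04 (0.119). Markers of cells that make lipocalin 2 were read beside it. Of 10 neutrophil markers, among them S100a8, S100a9 and Ltf, 0 were above the guide on any array, and their summed linear signal was 150.7 to 210.5 on the lung arrays, 233.9 to 252.0 on the subcutaneous arrays and 213.1 to 247.0 on the dish arrays. Of 9 alveolar type II markers, 5 were above the guide in lung samples (Sftpc, Sftpb, Sftpa1, Abca3 and Cxcl15), and the list had a summed signal of 12100 to 90000 on the lung arrays, 422.1 to 630.7 on the subcutaneous arrays and 280.1 to 391.6 on the dish arrays. Most of the lung sums of this list came from Sftpc. Abca3 was also above the guide on 3 subcutaneous and 2 dish arrays and averaged 7.91 in lung, 8.44 in subcutaneous and 7.16 in dish samples. Of 8 airway secretory markers, 4 were above it in lung samples (Scgb1a1, Scgb3a1, Scgb3a2 and Bpifb1), with sums of 225.5 to 24450 on the lung arrays, 176.8 to 236.1 on the subcutaneous arrays and 161.7 to 180.7 on the dish arrays. On the lung arrays Lcn2 and the alveolar list were both highest on replicate 3 and lowest on replicate 2. So was the summed signal of the macrophage list (1835, 706.9 and 2122 on replicates 1 to 3). The sums of the neutrophil list (190.6, 150.7 and 210.5) and of the 3 erythroid genes measured (289.3, 215.5 and 314.6) had the same order. On the lung arrays no neutrophil marker was above the guide, and of the erythroid genes only Slc4a1 was, on replicate 1. No order can be read from the neutrophil and erythroid sums. The airway sum was lowest on lung replicate 1. On subcutaneous replicate 1, where Lcn2 was also high, the alveolar sum was 577.1 and the airway sum 176.8. No airway marker was above the guide on either of these arrays. The part of these cells in the lung value of Lcn2 was not tested.

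**Figure D2:**
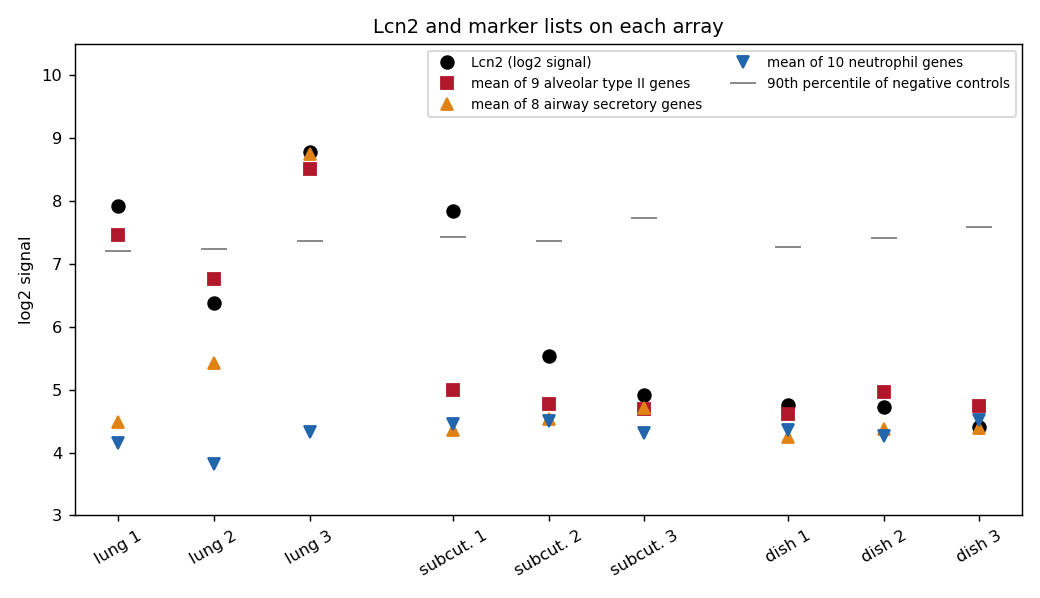
Log2 signal of Lcn2 (black circles) and the mean log2 signal of 9 alveolar type II, 8 airway secretory and 10 neutrophil markers on each array, with the 90th percentile of the negative controls (grey dashes). Lcn2 is at 8.78 on lung replicate 3 and 7.85 on subcutaneous replicate 1, and the neutrophil mean stays under the dashes on all 9 arrays.

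Mt1 and Mt2 encode the widely expressed metallothioneins of the mouse. RefSeq places Mt2 at 94172618 to 94173567 and Mt1 at 94178883 to 94180327 on chromosome 8, with 5315 bases between them. Their promoter windows are shown with that of the zinc exporter Slc30a1 (chromosome 1, 191906697 to 191913248), another known MTF1 target. Across the 9 arrays, Pearson's r was 0.901 for Mt1 with Mt2. It was 0.735 for Mt1 with Slc30a1 and 0.722 for Mt2 with Slc30a1, given as a description. Other genes ran closer to each of them, with r up to 0.926 for Mt1, 0.954 for Mt2 and 0.922 for Slc30a1. Control of these 3 genes by MTF1 was not tested. Each window runs from 250 bases before an annotated transcript start to 50 after it, on the plus strand of GRCm38.p6, from RefSeq. Windows were found for 6 of the 8 genes. For Mt1 and Slc30a1 the start used lies downstream of the first base of the annotated gene. Capitals mark matches, on either strand, to TGCACNC or TGCGCNC, forms of the core of the metal response element.
Mt1, chr8:94178839-94179138: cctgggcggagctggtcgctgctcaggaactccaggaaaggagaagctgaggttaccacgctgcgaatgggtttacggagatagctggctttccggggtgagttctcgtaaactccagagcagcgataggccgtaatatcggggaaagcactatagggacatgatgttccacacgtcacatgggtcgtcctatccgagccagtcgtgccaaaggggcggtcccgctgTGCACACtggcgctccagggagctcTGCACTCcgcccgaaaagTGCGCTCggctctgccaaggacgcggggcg
Mt2, chr8:94172368-94172667: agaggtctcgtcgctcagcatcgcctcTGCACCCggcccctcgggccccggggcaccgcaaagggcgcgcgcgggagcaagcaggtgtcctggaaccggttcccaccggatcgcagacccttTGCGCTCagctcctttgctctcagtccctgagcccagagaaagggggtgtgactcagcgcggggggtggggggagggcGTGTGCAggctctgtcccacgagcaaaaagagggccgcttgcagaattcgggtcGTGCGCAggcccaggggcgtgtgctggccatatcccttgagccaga
Slc30a1, chr1:191906531-191906830: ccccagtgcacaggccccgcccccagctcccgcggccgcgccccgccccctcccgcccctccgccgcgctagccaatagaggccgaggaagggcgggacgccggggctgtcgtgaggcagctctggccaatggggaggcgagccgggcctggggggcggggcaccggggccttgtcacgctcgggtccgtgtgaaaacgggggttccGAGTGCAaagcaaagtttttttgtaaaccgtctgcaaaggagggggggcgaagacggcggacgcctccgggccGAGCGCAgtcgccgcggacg
The Mt1 window holds 3 matches, that of Mt2 holds 4 and that of Slc30a1 holds 2, none of them overlapping. Of the other windows found, 1 of 2 for Tfrc holds 2 overlapping matches, and the other Tfrc window, both of Fth1 and that of Lcn2 hold 0. Over 32851 windows of the same length, 12.6% hold the first form and 15.4% the second, 25.7% hold either form, and 7.11% hold at least 2 matches, 1.97% at least 3 and 0.517% at least 4. A match is a description of the letters and not a measured site.

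Mt1 stood at 12.31, 12.70 and 12.39 on the lung arrays, 11.51, 12.61 and 12.03 on the subcutaneous arrays, and 13.05, 12.88 and 12.92 on the dish arrays. Mt2 stood at 11.28, 11.73 and 11.08 on the lung arrays, 10.67, 11.96 and 10.60 on the subcutaneous arrays, and 11.95, 12.34 and 12.10 on the dish arrays. Both genes were highest in the dish cultures on average, and in both transplanted groups replicate 2 was the highest for both genes. For Mt1 no array of transplanted cells reached the dish arrays; for Mt2, subcutaneous replicate 2 lay among them. Cross-hybridization between these related transcripts was not tested.

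The subcutaneous mean of Mt1 was 12.05 ± 0.55 (SD, n = 3) and the dish mean 12.95 ± 0.08, a log2 difference of -0.90 (SE 0.28, limma adjusted p = 0.052), just short of a call. For Mt2 the means were 11.08 ± 0.77 in subcutaneous and 12.13 ± 0.20 in dish samples, a difference of -1.05 (SE 0.35, limma adjusted p = 0.0638). Without subcutaneous replicate 2, which has the lowest RNA integrity number (7.5), both were called (-1.18, adjusted p = 0.0165 for Mt1; -1.49, adjusted p = 0.00584 for Mt2). Lung samples were lower than dish samples by smaller amounts, -0.48 for Mt1 (95% interval -1.09 to 0.12) and -0.76 for Mt2 (-1.51 to -0.02), neither called (limma adjusted p = 0.342 and 0.216). Lung over subcutaneous differences were 0.42 for Mt1 (-0.19 to 1.02) and 0.28 for Mt2 (-0.46 to 1.03), with overlapping arrays and no call.

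Slc30a1 encodes ZnT1, which exports zinc across the plasma membrane. It read 7.33, 7.35 and 7.31 on the lung arrays, 7.09, 8.03 and 7.09 on the subcutaneous arrays, and 8.09, 7.38 and 7.90 on the dish arrays. It was above the guide on 2 lung arrays, 1 subcutaneous array and 2 dish arrays. The lung arrays lay under the dish arrays without overlap, and as with the metallothioneins subcutaneous replicate 2 was the highest of its group. Its log2 difference was -0.46 between lung and dish samples (95% interval -1.10 to 0.17), -0.39 between subcutaneous and dish samples (-1.02 to 0.25) and -0.07 between lung and subcutaneous samples (-0.71 to 0.56), none of them called. Lung and dish arrays did not overlap for 6 of the 8 genes, 1 higher and 5 lower in lung, where 28.4% of all genes did not overlap (13.4% higher, 15.0% lower). For subcutaneous against dish arrays it was 4 of the 8, 1 higher and 3 lower, beside 29.3% of all genes (14.2% higher, 15.1% lower). For lung against subcutaneous arrays it was 1 of the 8, Fth1, which was lower, beside 32.5% of all genes (15.8% higher, 16.8% lower). The gene higher than dish in both transplanted groups was Lcn2, which was under the guide on all dish arrays. On some array 7 of the 8 genes were above the guide, beside 7443 of all 19505 genes. The shares of the 8 and of all genes, here and for the calls, thus come from sets of unlike signal.

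**Figure D3:**
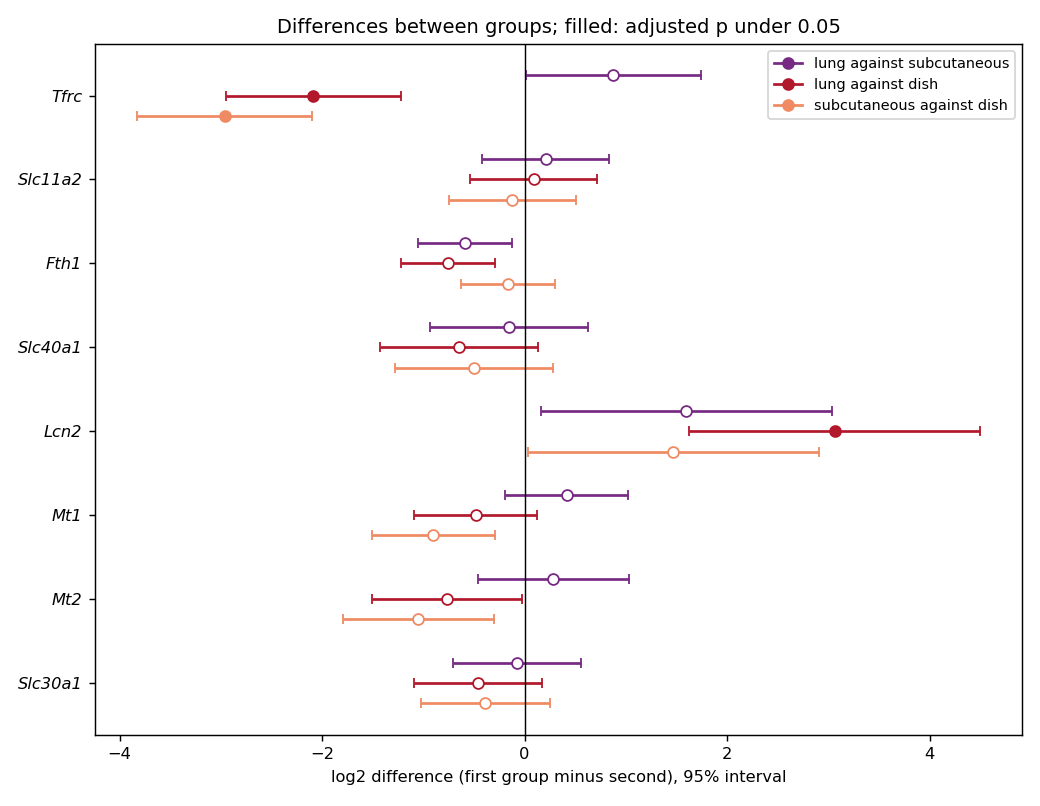
Log2 differences of the 8 genes with 95% intervals from limma (lung against either other group, and subcutaneous against dish; 3 arrays per group); filled circles mark an adjusted p under 0.05. The filled circles are those of Tfrc at -2.09 and -2.96 and of Lcn2 at 3.06.

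Genes whose signal ran most like that of each of the 8 across the 9 arrays were taken from 6895 genes above the guide on at least 2 arrays of a group. The arrays fall into 3 groups, so the correlations include the differences between groups and are given as descriptions. For Tfrc they were Aurka, Gm8096 and Cops6 (Pearson's r 0.984, 0.982 and 0.972), and for Fth1 Snord12, Ssbp3 and Rnf4 (0.980, 0.980 and 0.979). For Lcn2 they were Ppp2r2a, Abcc1 and Mitd1 (0.936, 0.934 and 0.928), and for Slc11a2 R3hcc1, Fbxo33 and Dld (0.944, 0.943 and 0.939). For Mt1 they were Uqcc3, Gm3448 and Ifi211 (0.926, 0.922 and 0.918), for Mt2 Gm3417, Mzt2 and Gm3448 (0.954, 0.944 and 0.943), and for Slc30a1 Slc35e3, Btbd3 and Polr3f (0.922, 0.887 and 0.873). Gm3448 was the gene that the lists of both metallothioneins shared.

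Around these 8 genes, 83 other genes of iron, heme, zinc, copper and glucocorticoid response lists were measured. Of these, 20 were called between lung and subcutaneous samples (13 higher, 7 lower), 7 between lung and dish samples (4 higher, 3 lower) and 22 between subcutaneous and dish samples (10 higher, 12 lower). Over all genes the called share was 15.0% between lung and subcutaneous samples (9.21% higher, 5.79% lower), 6.78% between lung and dish samples (4.81% higher, 1.97% lower) and 12.9% between subcutaneous and dish samples (6.41% higher, 6.47% lower). Of the 83 genes, 50 were above the guide on some array, beside 7443 of all 19505 genes. The called counts of the lists and of all genes thus come from sets of unlike signal. The subcutaneous arrays also stood apart in fibroblast markers: of 7 measured, Dcn, Lum and Dpt were above the guide on all 3 of them, and the list had a summed linear signal of 91050 to 155500, against 1855 to 16130 on the lung arrays and 487.4 to 667.0 on the dish arrays. Most of the sums on the subcutaneous and lung arrays came from Dcn. That gene was also above the guide on all 3 lung arrays and rose by 5.15 in lung over dish samples (limma adjusted p = 0.000455). The collagen genes Col1a1, Col1a2 and Col3a1 were under the guide on all arrays. Pdgfrb ran the other way, with means of 6.79 in lung, 6.68 in subcutaneous and 7.85 in dish samples. The part of such cells in the differences of these lists was not tested.

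In iron uptake and reduction, 2 of 11 genes rose between lung and subcutaneous samples and 2 fell between subcutaneous and dish samples. For lung against dish samples limma called 0 (2 at an unadjusted p under 0.05, beside 4271 of all 19505 genes). Steap3, the endosomal ferrireductase that prepares iron for Slc11a2, read 11.05, 10.27 and 11.38 on the lung arrays, 8.97, 9.001 and 8.50 on the subcutaneous arrays, and 10.15, 10.01 and 10.21 on the dish arrays. The 3 subcutaneous arrays were the lowest, and the log2 difference was 2.07 for lung over subcutaneous (limma adjusted p = 0.000717) and -1.30 for subcutaneous over dish (0.00967). The metal importer Slc39a8 followed the same order of calls (0.95 and -1.41) but was not well above background on any array, and its lung call was lost without subcutaneous replicate 2 (adjusted p = 0.0549).

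Among iron storage and release genes, 1 of 7 was called in each comparison, Ftl1, the light chain of ferritin and partner of Fth1. It read 15.35, 15.44 and 15.08 on the lung arrays, 13.51, 14.23 and 13.59 on the subcutaneous arrays, and 16.24, 16.40 and 16.44 on the dish arrays. The 3 groups did not overlap, and unlike Fth1, which was lowest in the lung, Ftl1 was lowest under the skin. It rose by 1.51 in lung over subcutaneous samples (limma adjusted p = 0.00191) and fell by 2.58 in subcutaneous and 1.07 in lung samples relative to dish samples (3.34e-05 and 0.0232). The lung fall from dish was not called without any 1 of lung replicates 1, 2 or 3 or dish replicates 2 or 3 (adjusted p = 0.0503 to 0.0888).

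In the iron sensing list, 2 of 10 genes fell between lung and subcutaneous samples and 1 rose between subcutaneous and dish samples. Aco1, the iron regulatory protein that also works as an aconitase, fell by 0.99 in lung over subcutaneous samples (limma adjusted p = 0.0208), a call lost without lung replicate 1 or 2 or subcutaneous replicate 1 (0.069 to 0.0875). Ndfip1, an adaptor of ubiquitin ligases that limits DMT1, fell by 1.15 in lung over subcutaneous samples (0.00682) and rose by 0.97 in subcutaneous over dish samples (0.0165, lost without dish replicate 2 or 3 at 0.0661 and 0.0523). The hormone gene Hamp, which encodes hepcidin, was under the guide throughout.

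Heme genes moved in both directions: of 10, 2 rose and 2 fell between lung and subcutaneous samples, 1 rose between lung and dish samples, and 2 rose and 1 fell between subcutaneous and dish samples. Blvrb, a biliverdin reductase, read 9.37, 9.50 and 10.81 on the lung arrays, 12.79, 13.30 and 13.07 on the subcutaneous arrays, and 9.63, 8.32 and 8.24 on the dish arrays. It was thus high on the subcutaneous arrays, by a log2 difference of 4.32 over dish samples (limma adjusted p = 3.23e-05), and fell by 3.16 in lung over subcutaneous samples (0.000501). Alas1, the first enzyme of heme synthesis, ran the other way (1.28 for lung over subcutaneous, limma adjusted p = 0.00736, and -1.79 for subcutaneous over dish, 0.000774), and Fech, the last enzyme, like Blvrb (-1.01, 0.00956, and 1.51, 0.000675). Hp, the haemoglobin-binding haptoglobin, was higher in lung than in subcutaneous (2.13) and dish samples (1.54) but above the guide on lung replicate 3 alone; its call against dish was lost without lung replicate 2 or 3, subcutaneous replicate 1 or any dish array (adjusted p = 0.0513 to 0.117), and with equal medians of bright genes (0.0763), array weights (0.0506), the RNA integrity covariate (0.0712) or only the 2 groups compared (0.0624). In the mitochondrial list, 2 of 5 genes rose in lung over subcutaneous samples, and 1 rose and 2 fell in subcutaneous over dish samples. The iron-sulfur gene Glrx5 (1.44 and -1.89) and the cysteine desulfurase Nfs1 (1.32 and -0.92) were low under the skin, and the iron importer Slc25a37 was high there over dish samples (1.42); the Nfs1 call against dish was lost without any 1 array but lung replicate 3 (0.0538 to 0.169).

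Of 24 further zinc and metallothionein genes, 13 were above the guide on some array; 4 rose and 1 fell between lung and subcutaneous samples, 1 rose and 2 fell between lung and dish samples, and 1 rose and 5 fell between subcutaneous and dish samples. Slc39a10, the importer ZIP10, read 11.83, 11.29 and 12.15 on the lung arrays, 13.02, 12.44 and 12.04 on the subcutaneous arrays, and 8.38, 8.01 and 8.38 on the dish arrays. Both transplanted groups stood far above the dish cultures, by a log2 difference of 3.5 for lung (limma adjusted p = 6.66e-05) and 4.24 for subcutaneous samples (3.86e-06). In subcutaneous samples, 5 other carriers fell relative to dish samples. The values were -1.80 for the Golgi carrier Slc39a13 (limma adjusted p = 0.000837), -1.67 for Slc39a7 of the endoplasmic reticulum (0.0015), -1.99 for Slc39a11 (0.00679) and -1.28 for the exporter Slc30a5 (0.0431), and Slc39a6 was called as well. Slc39a7 was not well above background in subcutaneous samples, so the dish level is at least 1.523-fold higher, and Slc39a11 was so on all subcutaneous arrays and allows no bound. The Slc30a5 call was lost without lung replicate 1, subcutaneous replicate 2 or 3 or dish replicate 1 or 2 (0.0606 to 0.136). In lung over subcutaneous samples, Slc39a13 rose by 1.74 (0.00145) and Slc30a5 by 1.496 (0.0188, lost without lung replicate 1 or 3 or subcutaneous replicate 2 or 3), Slc39a6 and the zinc sensor gene Mtf1 rose as well, and the vesicle exporter Slc30a4 fell by 1.77 (0.000958). Slc30a4 also fell by 1.17 in lung relative to dish samples (0.0189, lost without lung replicate 1 or dish replicate 1 or 2), as did Slc30a3, which was under the guide on all arrays. Mt3 and Mt4, the metallothioneins of brain and of stratified epithelium, were under the guide on all 9 arrays.

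**Figure D4:**
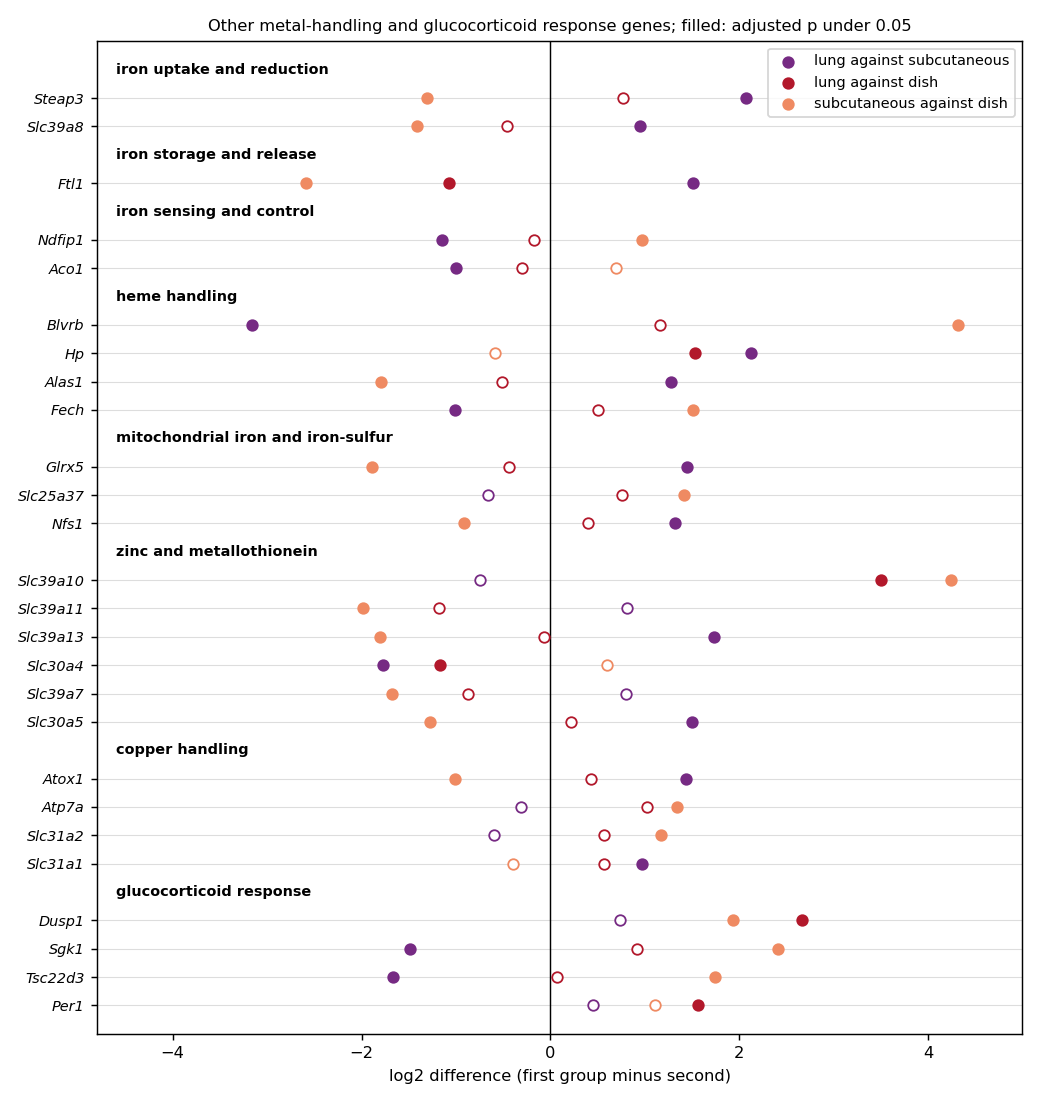
Log2 differences of called genes (at most 6 per list) of the iron, heme, zinc, copper and glucocorticoid response lists (lung against either other group, and subcutaneous against dish; limma, 3 arrays per group), with filled symbols for an adjusted p under 0.05. Slc39a10 stands at 3.5 and 4.24 over dish samples, and Blvrb at 4.32 in subcutaneous over dish samples.

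Copper genes were called for 2 of 8 between lung and subcutaneous samples (both higher) and 3 between subcutaneous and dish samples (2 higher, 1 lower). For lung against dish samples limma called 0 (1 at an unadjusted p under 0.05, beside 4271 of all 19505 genes). Atox1, the chaperone that hands copper to the export pumps, rose by 1.44 in lung over subcutaneous samples (limma adjusted p = 0.00231) and fell by 1.01 in subcutaneous relative to dish samples (0.0163, lost without subcutaneous replicate 1 or dish replicate 1 or 2). The copper importer Slc31a1 rose by 0.97 in lung over subcutaneous samples (0.0456), a call lost without lung replicate 1, 2 or 3, subcutaneous replicate 1 or 3 or dish replicate 2. In subcutaneous over dish samples the related Slc31a2 rose by 1.17 (0.0106). The pump Atp7a rose by 1.34 there (0.0226, lost without subcutaneous replicate 1 or 2 or dish replicate 2 or 3) but was above the guide on subcutaneous replicate 1 alone.

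Glucocorticoid response genes were read because the same hormones act on Mt1 and Mt2. Of 8, 2 rose between lung and dish samples, 3 rose between subcutaneous and dish samples, and 2 fell between lung and subcutaneous samples. Fkbp5, Klf9, Zbtb16 and Ddit4 were not called in any comparison. Fkbp5 averaged 8.92 in lung, 8.08 in subcutaneous and 8.10 in dish samples, and Klf9 7.28, 7.24 and 7.11. Zbtb16 and Ddit4 were under the guide on all arrays. Dusp1, a phosphatase of MAP kinases, read 15.06, 15.83 and 14.45 on the lung arrays, 14.33, 14.26 and 14.54 on the subcutaneous arrays, and 12.84, 12.21 and 12.29 on the dish arrays. Each array of transplanted cells was above each dish array, with differences of 2.67 for lung (limma adjusted p = 0.000608) and 1.93 for subcutaneous samples (0.00157). Tsc22d3, which encodes the glucocorticoid-induced leucine zipper, rose by 1.74 in subcutaneous over dish samples (0.00227) and fell by 1.67 in lung over subcutaneous samples (0.00346). The kinase gene Sgk1 rose by 2.41 in subcutaneous over dish samples (0.000977) and fell by 1.49 in lung over subcutaneous samples (0.0186, lost without lung replicate 1 or subcutaneous replicate 2 or 3). The clock gene Per1 rose in lung samples, where it is at least 1.085-fold higher than the background guide of the dish arrays (log2 difference 1.56, 0.0251, lost without lung replicate 1 or 2 or any dish array). Mt1 and Mt2 themselves were lower on average in both transplanted groups than in dish samples, with no difference called. The part of glucocorticoids in any of these values was not tested.

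Some calls on these lists were lost under settings other than leaving out an array, that of Hp among them. With RNA integrity as a covariate, subcutaneous differences from dish that were no longer called were 0.99 for Ndfip1 (adjusted p = 0.0798), -1.12 for Atox1 (0.0538), 1.19 for Slc31a2 (0.0602), -0.95 for Nfs1 (0.156) and -1.10 for Steap3 (0.0995), each within 1.5 times its value without the covariate. That of Slc30a5 shrank to -0.65 (0.395). Nfs1 also lost this call with equal medians of bright genes (0.0584), an intensity trend (0.058) and array weights (0.0714). In lung over subcutaneous samples, equal medians of bright genes ended the call on Slc39a8 (0.0621) and quantile normalization that on Slc30a5 (0.0575). The Slc31a1 call ended with equal medians (0.0886), quantile normalization (0.122), array weights (0.0589), the covariate (0.0725) and only the 2 groups compared (0.0611). Of 45 calls of 26 genes followed, 29 held under all alternatives run, and 0 changed direction.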

How the data were processed

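Per the labels' protocols, sense cDNA from total RNA of 9 samples was fragmented and biotin-labelled for 1-colour arrays. The log2 signals were deposited as 1 table of 28846 rows; how they were normalized, with which software, is not given in the sources used here. The values were used as deposited. Platform annotation gave 19572 features 1 symbol, and the brightest feature was kept for 55 genes with several, leaving 19505 genes. Groups came from the sample titles. limma 3.58.1 in R 4.3.3 (lmFit, eBayes) was fitted to 3 group means over all 9 arrays, with Benjamini-Hochberg adjustment over all genes and no filter. The script was tested on simulated data. The number of arrays limits the precision.

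Bounds set the brighter group's mean against the higher of the background guide (90th percentile of the 5222 negative controls) and the dim probe, array by array. Promoters and positions are from RefSeq (GRCm38.p6), and positions were not read through the array's probes. All 8 genes were named, as were called list genes whose groups did not overlap (at most 6 per list with values), and the 3 genes most like each of the 8 by Pearson's r. The genes, lists and tests were chosen with earlier results of these data known. Alternatives were quantile normalization, equal medians of bright genes, a filter on dim genes, an intensity trend, robust fitting, array weights, RNA integrity as a covariate, only the 2 groups compared, the mean of a gene's features, a replicate block, and leaving out each array. Protein sequences were not used here.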

Additional observations from a re-analysis of the deposited data

How the results depend on the processing

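Tfrc was called lower in both comparisons with dish samples under all alternatives run (-2.39 to -1.56 for lung, adjusted p = 0.00177 to 0.0383; -3.51 to -2.11 for subcutaneous, 6.74e-05 to 0.00279). Of 453 alternative values for 24 results of the 8 genes, 418 kept direction and call. Between lung and dish samples, 1 to 2 of the 8 genes were called when 1 array was left out. There, 3 were called (Tfrc, Fth1, Lcn2) with equal medians of bright genes, a dim filter, an intensity trend or array weights. Between lung and subcutaneous samples, 1 was called (Fth1) with equal medians of bright genes, with a dim filter or with an intensity trend, and 0 to 2 without 1 array. Between subcutaneous and dish samples, quantile normalization called 2 (Tfrc, Mt1), a dim filter 3 and an intensity trend 3 (Tfrc, Mt1, Mt2), RNA integrity as a covariate 4 (also Lcn2), and leaving out 1 array 1 to 3. With that covariate the subcutaneous differences from dish were -1.38 for Mt1 (0.013), -1.54 for Mt2 (0.0323) and 2.94 for Lcn2 (0.00513). The dim filter leaves out Slc40a1.

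Reversed values, none of them called, were those of Slc11a2 between lung and dish samples (-0.24 by quantile normalization, -0.13 with equal medians, -0.079 to 0.25 without 1 array), between lung and subcutaneous samples (-0.10 by quantile normalization, -0.089 to 0.40 without 1 array) and between subcutaneous and dish samples (0.12 with the integrity covariate, -0.31 to 0.18 without 1 array). Slc30a1 between lung and subcutaneous samples turned to 0.055 with that covariate (-0.23 to 0.24 without 1 array), and Slc40a1 ran from -0.52 to 0.25 without 1 array. The causes were not tested.

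Over all genes, lung against dish gave 3039 calls with array weights, 856 with the integrity covariate and 514 to 1442 without 1 array (591 without lung replicate 1, 765 without lung replicate 2, 514 without dish replicate 2 and 667 without dish replicate 3). Lung against subcutaneous gave 1476 to 2928 without 1 array (1476 without lung replicate 1 and 1938 without lung replicate 2). Subcutaneous against dish gave 1280 with the covariate and 1639 to 2738 without 1 array (1639 without dish replicate 2). Over all genes, the deviations of same-numbered samples from their group means had an r of -0.06 to 0.09. Most of these genes were under the guide on all arrays, so this check cannot tell whether the numbers pair the samples. With the replicate block, 2 of the 8 genes were called between subcutaneous and dish samples (Tfrc, and Mt2 at adjusted p = 0.0269), and no other call on the 8 genes changed. Among the list genes the block ended 2 calls, on Slc31a1 between lung and subcutaneous samples (0.0588) and on Nfs1 between subcutaneous and dish samples (0.0591).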
